A study of Mus musculus with 18 samples.

Results

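Dapl1, Igfbp4, Pdlim4, St8sia6, Actn1, Zbtb20 and Pde3b are 7 genes of resting T cells that were followed across splenic CD4+ T cells of mice with and without the transcription factor Foxp3. They were chosen by name from these same data, as genes with large falls in ∆Foxp3 mice whose level returned in ∆Foxp3 cells of mixed bone marrow chimeras. They are 7 of the 33006 genes in the deposited matrix, of which 17739 had at least 1 UMI (a unique molecular identifier, counted once per captured transcript). Because those falls and returns chose the genes, the values of ∆Foxp3 mice beside WT mice, and of chimera ∆Foxp3 cells beside ∆Foxp3 mice, are a description and are given with no p-value.

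The study profiled 26652 single cells in 18 samples from male mice, sorted from spleen as TCRβ+ CD4+ cells. In one experiment, made with the V2 version of the 10x Genomics 3′ kit, 2 samples of 3-week-old ∆Foxp3 mice stood beside 2 samples of WT mice of the same age. The ∆Foxp3 mice carried a Foxp3 allele disrupted by EGFP and Cre, with a YFP reporter in ROSA, and their WT mice carried Foxp3-IRES-GFP, in which GFP marks cells that transcribe Foxp3. The other experiment, made with the V3 kit, held 14 samples. Among them were 2 samples of 3-week-old ∆Foxp3 mice, 3 of ∆Foxp3 cells and 3 of WT cells from chimeras, 2 of all CD4+ T cells of 9-week-old WT mice, and 2 each of sorted GFP+ regulatory T (Treg) cells and GFP- conventional T (Tconv) cells of 9-week-old WT mice. The WT mice and WT marrow donors of that experiment carried Foxp3-IRES-GFP and CD45.1, and the ∆Foxp3 donors carried the disrupted allele, the YFP reporter and both CD45.1 and CD45.2. Chimera recipients were CD45.2 mice irradiated with 1000 rad at 7 weeks of age and given CD3-depleted marrow cells, 50% from each donor, and their spleens were taken 10 weeks later. ∆Foxp3 and WT cells of 1 chimera carried the same hashtag, so samples with the same number came from the same mouse. In those recipients, ∆Foxp3 T cells shared the animal with WT Treg cells. Both samples of each V3 group from non-chimeric mice carried the same hashtag and came from separate encapsulation tubes, so they may be 1 animal. P-values then measure the spread between samples, which may be technical.

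Foxp3 specifies Treg cells, and male mice without it develop the fatal lymphoproliferative disease known as scurfy. Resting T cells circulate through lymphoid organs, divide little and keep a transcriptional state held by factors of the FOXO, KLF and TCF/LEF families. Antigen receptor signalling ends that state: surface homing receptors, signalling inhibitors and parts of the cytoskeletal machinery are exchanged for an effector set. Of the 7 genes, Dapl1 encodes a small relative of death-associated protein, known as a transcript of naive T cells. Actn1 encodes an alpha-actinin, which crosslinks actin filaments, and Pdlim4 encodes a PDZ-LIM protein that binds alpha-actinin. Igfbp4 encodes a secreted protein that binds insulin-like growth factors. St8sia6 encodes a sialyltransferase that adds sialic acid to sialylated glycans. Zbtb20 encodes a BTB zinc finger repressor of transcription. Pde3b encodes a phosphodiesterase that breaks down cyclic AMP.

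The genes lie on 5 chromosomes in the GRCm38 annotation: St8sia6 at chr2:13651018-13794734 and Dapl1 at chr2:59484653-59505020, Pde3b at chr7:114415222-114537938, Pdlim4 at chr11:54054928-54069032 and Igfbp4 at chr11:99040005-99052655, Actn1 at chr12:80167542-80260420, and Zbtb20 at chr16:42875689-43634392. All 7 are protein-coding. RefSeq promoter windows of 300 bases on GRCm38.p6, from 250 bases before to 50 after the start annotated in RefSeq, matched 6 of the 7 genes by symbol. Pde3b was not matched. That RefSeq start is not always the outer end of the gene span given above. The Zbtb20 window, chr16:43247034-43247333, lies far inside its span, and the windows of Igfbp4 and St8sia6 also lie inside theirs. They are shown because the genes moved together in the V3 samples, and they were searched on both strands for letters bound by the factor families of the resting state and of activation: GTAAACA (FOXO), ATCAAAG (TCF/LEF), CCGGAAG (ETS), CACACCC (KLF) and TGANTCA (AP-1). No searched motif overlapped another match. Of 32851 RefSeq promoters of this length, 3.65% held the FOXO letters, 3.73% TCF/LEF, 8.86% ETS, 7.95% KLF and 7.81% AP-1. The 3 windows with a match are printed 5′ to 3′ on the gene's strand, with the match in capitals.
Dapl1 promoter, chr2:59484403-59484702, plus strand: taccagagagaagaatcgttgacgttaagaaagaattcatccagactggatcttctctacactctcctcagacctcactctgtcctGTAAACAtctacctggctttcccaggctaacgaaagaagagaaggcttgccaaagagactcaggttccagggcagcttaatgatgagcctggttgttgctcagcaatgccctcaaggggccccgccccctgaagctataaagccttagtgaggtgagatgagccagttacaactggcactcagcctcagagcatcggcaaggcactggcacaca
Igfbp4 promoter, chr11:99040994-99041293, plus strand: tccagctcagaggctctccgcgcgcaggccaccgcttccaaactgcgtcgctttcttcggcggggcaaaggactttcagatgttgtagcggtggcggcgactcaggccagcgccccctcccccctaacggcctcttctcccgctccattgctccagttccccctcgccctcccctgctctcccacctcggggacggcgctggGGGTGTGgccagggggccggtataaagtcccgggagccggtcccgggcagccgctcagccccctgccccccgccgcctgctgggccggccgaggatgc
St8sia6 promoter, chr2:13793471-13793770, minus strand: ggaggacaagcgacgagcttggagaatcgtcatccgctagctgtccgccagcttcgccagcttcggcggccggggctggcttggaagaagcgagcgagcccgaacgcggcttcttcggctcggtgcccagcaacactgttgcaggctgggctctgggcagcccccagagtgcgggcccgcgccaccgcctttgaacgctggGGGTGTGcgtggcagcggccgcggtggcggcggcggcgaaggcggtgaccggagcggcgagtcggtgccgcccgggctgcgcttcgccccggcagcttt

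The Dapl1 match is GTAAACA, with its first base 164 before the start. The Igfbp4 and St8sia6 matches are the KLF letters read on the other strand, GGGTGTG. Their first bases are 48 and 49 before the RefSeq start of each window, which lies inside the gene span. The windows of Pdlim4, Actn1 and Zbtb20 held none of the 5 motifs. For Zbtb20 this says nothing of the outer start of its gene span, which was not searched. A match here is a run of letters and not a measured binding site.

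Depth and identity of the libraries set the frame for every value. Median UMIs per cell were 2774 to 3143 in V2 samples and 4731 to 8856.5 in V3 samples, and no value was compared across kits. All 8 markers of CD4 T cells were detected in every sample. In 2 of the 6 chimera samples the strain entry in the deposited cell annotation went against the sample name, namely the ∆Foxp3 sample of chimera 2 and the WT sample of chimera 1. Chimera results are therefore given with and without these 2 samples. Libraries shared at most 38 cell barcodes, between the WT samples of the V2 kit. The authors' annotation was used for cell classes: resting Tconv, activated Tconv, and Treg or Treg-like cells (Treg-annotated below).

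Levels are UMIs of the gene per 1000000 UMIs of the cells summed (CPM). In sums of this kind, fewer cells that express a gene and less RNA per cell cannot be told apart. The first readout was the level within cells annotated as resting Tconv, which takes the share of cells with that annotation out of the comparison. Differences of state among the cells so annotated stay in it.

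**Figure D1:**
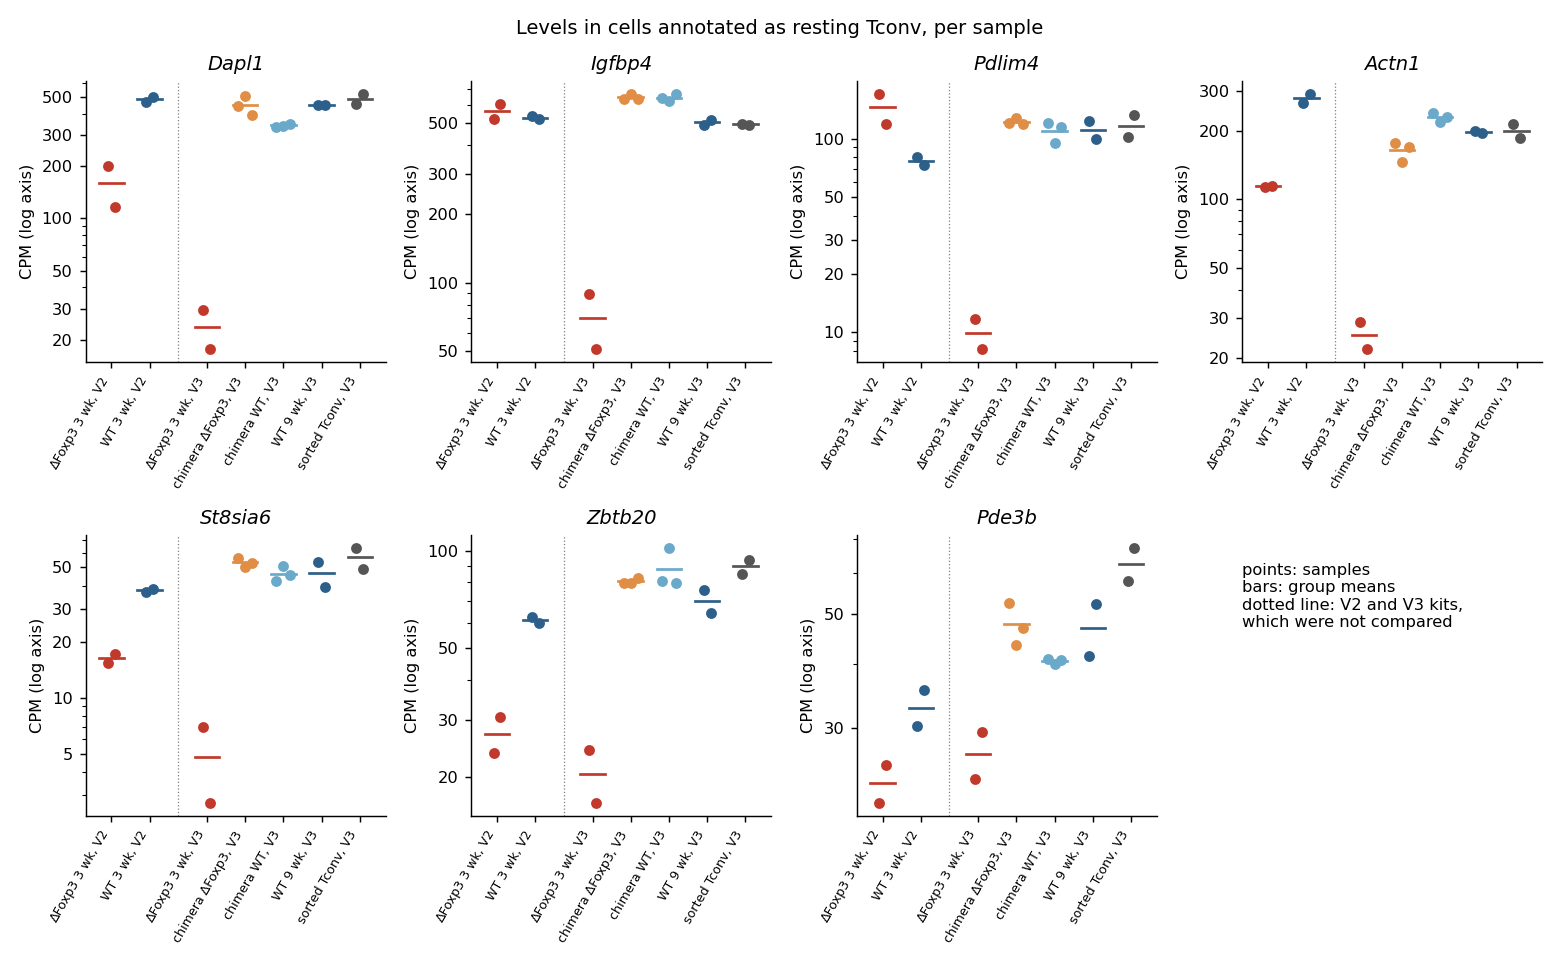
Level of each gene in cells annotated as resting Tconv (CPM, log axis) by group, with 1 point per sample and a bar at the group mean. The ∆Foxp3 samples of the V3 kit lie lowest for all 7 genes among V3 samples, and the chimera ∆Foxp3 samples lie among or near the WT samples.

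Within resting Tconv of the V3 kit, all 7 genes were lower in ∆Foxp3 mice than in 9-week-old WT mice. Dapl1 fell most. It had 29.6 and 17.6 CPM in ∆Foxp3 mice, compared with 446 and 447 CPM in WT mice, a difference of -4.56 ± 0.15 in log2 (SE, edgeR), or 23.5-fold lower. The cytoskeletal pair fell together. Pdlim4 had 11.8 and 8.18 CPM in ∆Foxp3 mice, compared with 123 and 99.5 CPM in WT mice (log2 difference -3.81 ± 0.18). Actn1 had 28.7 and 21.8 CPM in ∆Foxp3 mice, compared with 199.9 and 197 CPM in WT mice (-3.28 ± 0.13). The ∆Foxp3 and WT samples of both genes lay far apart.

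The genes for a secreted and a glycan-modifying protein fell by similar amounts. Igfbp4 had 89.4 and 51.0 CPM in ∆Foxp3 mice, compared with 490.0 and 516 CPM in WT mice (log2 difference -3.15 ± 0.13). St8sia6 had 6.94 and 2.73 CPM in ∆Foxp3 mice, compared with 53.7 and 39.2 CPM in WT mice (-3.66 ± 0.25), and its difference moved to -4.42 without ∆Foxp3 sample 1 and to -3.07 without sample 2. The other 2 genes, a transcriptional repressor and a cyclic AMP phosphodiesterase, moved less. Zbtb20 had 24.2 and 16.6 CPM in ∆Foxp3 mice, compared with 75.6 and 64.3 CPM in WT mice (-2.11 ± 0.17). Pde3b had 23.9 and 29.5 CPM in ∆Foxp3 mice, compared with 41.5 and 52.3 CPM in WT mice (-1.05 ± 0.15), the smallest difference of the 7 genes.

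Of all 10182 genes tested in this comparison, 19.2% were lower at an adjusted p under 0.05 (edgeR quasi-likelihood test, Benjamini-Hochberg); all 7 members were among them, which the choice of genes makes a description. Over all genes the median log2 difference was -0.00, and over the members it was -3.28. When every cell was first thinned to 1500 UMIs, Pde3b no longer passed and its difference was -0.50, while Dapl1 stood at -3.92 and Igfbp4 at -2.43. Age and genotype changed together in this comparison and cannot be told apart, since the ∆Foxp3 mice were 3 weeks old and the WT mice 9 weeks old.

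The V2 samples were matched for age, and there the 7 genes did not move as a block. In resting Tconv, 5 genes were lower in ∆Foxp3 mice, Igfbp4 did not pass and Pdlim4 was higher. Dapl1 had 201 and 116 CPM in ∆Foxp3 mice, compared with 466 and 501 CPM in WT mice, a log2 difference of -1.59 ± 0.20 (SE), or 3.00-fold lower. Actn1 had 113 and 115 CPM in ∆Foxp3 mice, compared with 267 and 292 CPM in WT mice (-1.30 ± 0.08). Neither gene had overlapping groups.

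St8sia6 had 15.4 and 17.1 CPM in ∆Foxp3 mice, compared with 36.8 and 38.5 CPM in WT mice (log2 difference -1.25 ± 0.11). Zbtb20 had 23.7 and 30.7 CPM in ∆Foxp3 mice, compared with 62.6 and 59.9 CPM in WT mice (-1.25 ± 0.12). Both stood at less than the WT level in each ∆Foxp3 sample. Pde3b had 21.5 and 25.4 CPM in ∆Foxp3 mice, compared with 30.3 and 35.5 CPM in WT mice (-0.54 ± 0.14). Its call was lost with DESeq2 (-0.53), with thinned cells (-0.37), and without WT sample A (-0.66), WT sample B (-0.40) or ∆Foxp3 sample A (-0.39).

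Igfbp4 had 520.1 and 606 CPM in ∆Foxp3 mice, compared with 534 and 521 CPM in WT mice, so that the groups overlapped. Its log2 difference was 0.08 with a 95% interval (normal approximation from the SE, as for all intervals below) of -0.08 to 0.25, and it passed only without ∆Foxp3 sample A, at 0.18. Pdlim4 went the other way: it had 170.2 and 119 CPM in ∆Foxp3 mice, compared with 80.0 and 72.7 CPM in WT mice (0.94 ± 0.15). For these 2 genes the description as lost does not hold in resting Tconv of the age-matched V2 samples. Of the 10071 genes tested, 7.63% were lower and 12% higher in ∆Foxp3 mice, and 5 and 1 of the 7 members stood on those sides. The median difference was -1.25 over the members and -0.01 over all genes.

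The resting cells of ∆Foxp3 mice were not otherwise like those of WT mice. In the V3 samples, 20 of 20 genes of a list of activated and memory T cells were higher in resting-annotated cells of ∆Foxp3 mice. Over all genes, 2265 of 10182 tested were higher there in edgeR. S100a4, a calcium-binding protein of effector cells, was at a log2 difference of 6.12. In the V2 samples 15 of 20 were higher and 1 lower, with S100a4 at 3.44. Of 22 genes of naive and resting T cells, 18 were lower and 0 higher with V3 (edgeR), among them Il6ra, the interleukin-6 receptor, at -3.09. With V2, 5 were lower and 3 higher; Lef1, a transcription factor of the TCF/LEF family, was at -0.57. These lists were drawn up with earlier results of these data known, so their counts are no independent evidence of direction.

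Other measures of the resting cells moved too. Cells with a UMI of Mki67, Top2a or Birc5, genes of dividing cells, made up 27.5% and 40.1% of resting-annotated cells of V3 ∆Foxp3 mice, against 3.95% and 8.30% in WT mice. With V2 the shares were 11.4% and 7.20% in ∆Foxp3 mice, against 1.79% and 1.90% in WT mice. Leaving cycling cells out gave V3 differences of -4.03 for Dapl1, -3.23 for Pdlim4, -3.11 for St8sia6, -2.91 for Actn1, -2.69 for Igfbp4, -1.82 for Zbtb20 and -0.81 for Pde3b. Of 12 mitochondrial transcripts, 11 were tested; 11 were lower in V3 ∆Foxp3 mice and 7 in V2 ∆Foxp3 mice. Of 6 tested dissociation and immediate early genes, 4 were higher with V3 and 5 with V2. Summed myeloid markers stood at 303 and 345 CPM in resting cells of V3 ∆Foxp3 mice, against 82.5 and 95.6 CPM in WT mice. That sum includes Ifitm3 and Cst3, which were left out when cells of other types were called, as genes found in every class. Resting cells with at least 2 UMIs of the remaining markers of other types made up 9.45% and 12.7% in V3 ∆Foxp3 mice, against 5.62% and 7.51% in WT mice. Treg markers moved in the same cells: of 7 tested, 4 were higher and 1 lower with V3, and 5 higher and 1 lower with V2. Their summed level was 401 and 385 CPM in resting cells of V3 ∆Foxp3 mice, against 106 and 170.1 CPM in WT mice, and 207 and 209 CPM in V2 ∆Foxp3 mice, against 226 and 195 CPM in WT mice. Ikzf2, which encodes the Treg-associated factor Helios, had 177 and 161 CPM in V3 ∆Foxp3 mice, against 4.55 and 10.8 CPM in WT mice. In ∆Foxp3 sample B of the V2 kit, 49.4% of resting-annotated cells carried at least 2 UMIs of markers of other cell types, against 5.998% in sample A, with summed erythroid markers at 607 CPM in sample B and 118 CPM in sample A. The part of these measures in the levels of the 7 genes was not tested, beyond the fits without cycling cells and without cells of other types, in each of which 7 members were called with V3 and 6 with V2.

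The same cells were then counted one by one, to see whether the lower sums came with fewer cells that had a UMI. Each cell was thinned to 1500 UMIs so that depth was equal. At that depth Dapl1 was detected in 3.78% and 3.76% of resting cells of V3 ∆Foxp3 mice, against 34.2% and 35.6% in WT mice. Sorted Treg cells, which had little Dapl1, gave 2.72% and 2.60%, so the ∆Foxp3 shares were near that level. Without thinning, the shares were 10.7% and 8.92% in ∆Foxp3 mice (median 6313 and 7988.5 UMIs per cell), against 56.7% and 61.7% in WT mice (5212.5 and 6587 UMIs) and 6.65% and 5.19% in sorted Treg cells (4731 and 5747 UMIs). Thus the deeper ∆Foxp3 cells had the gene less often than the WT cells.

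Counted together, the members were found in fewer cells and in fewer combinations. With thinned cells, 72.7% and 81.9% of resting cells of V3 ∆Foxp3 mice had no UMI of any of the 7 genes, against 18.2% and 23.3% in WT mice. At least 3 of the 7 genes were seen in 0.840% and 1.17% of cells of ∆Foxp3 mice, against 13.5% and 12.3% in WT mice. With V2 the cells without any member made up 33.1% and 31.5% in ∆Foxp3 mice, against 21.9% and 19.7% in WT mice, and cells with at least 3 made up 5.41% and 3.34% in ∆Foxp3 mice, against 12.4% and 13.0% in WT mice. Chimera cells were near the WT mice: 16.6%, 18.9% and 19.9% of ∆Foxp3 resting cells lacked all 7, against 21.0%, 21.0% and 19.8% of WT resting cells.

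**Figure D2:**
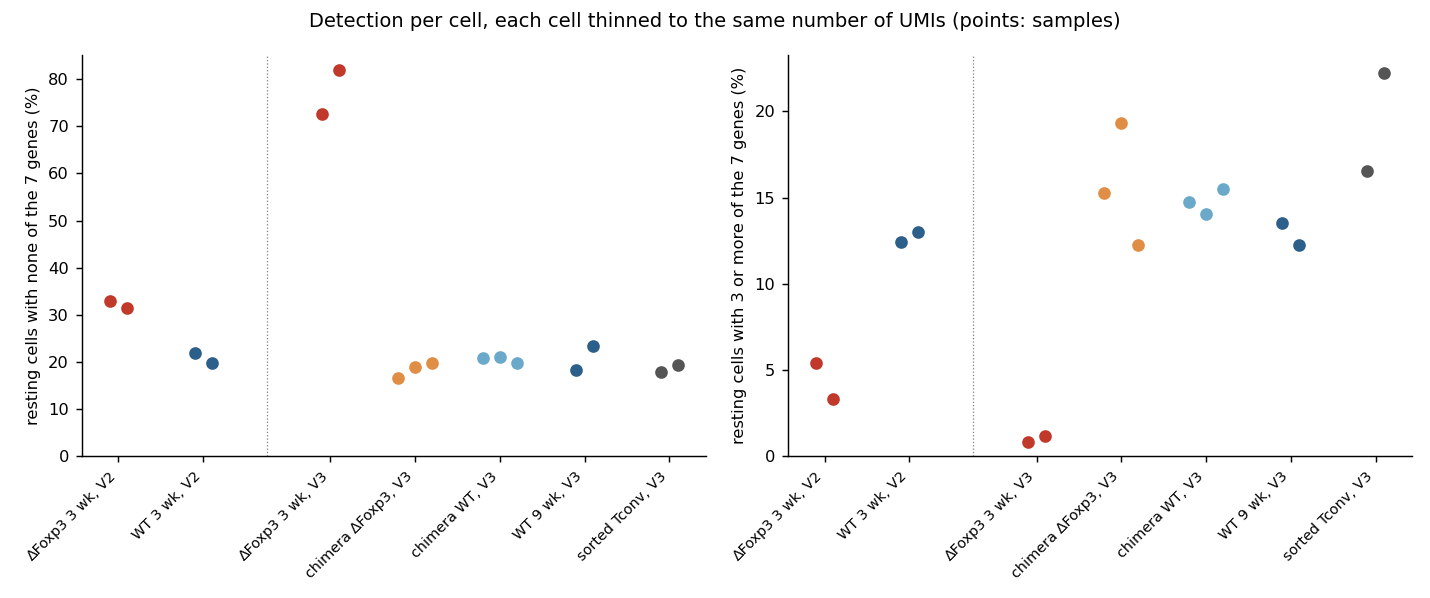
Share of resting Tconv (percent of cells) with a UMI of none of the 7 genes (left) and of 3 or more of them (right), after thinning every cell to 1500 UMIs, with 1 point per sample. In V3 ∆Foxp3 mice 72.7% and 81.9% of cells had none, against 18.2% and 23.3% in WT mice, and the chimera samples lie beside the WT mice.

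The authors divided resting Tconv into a main cluster, Tconv_resting_1, and smaller clusters marked Irf7 and TCRhi. The V2 difference of Dapl1 was present in each of them. Dapl1 in Tconv_resting_1 had 215 and 129 CPM in ∆Foxp3 mice, compared with 471 and 508 CPM in WT mice. In the Irf7 cluster it had 153 and 70.5 CPM in ∆Foxp3 mice, compared with 424 and 446 CPM in WT mice, and in the TCRhi cluster 123 and 56.0 CPM in ∆Foxp3 mice, compared with 446 and 475 CPM in WT mice. Igfbp4 of V3 ∆Foxp3 mice was uneven among the clusters: the Irf7 cluster had 189.9 and 199 CPM, and Tconv_resting_1 had 78.8 and 39.7 CPM in the same samples. In V3 WT mice the order was not the same in both samples, with 365 and 623 CPM in the Irf7 cluster and 505 and 512 CPM in Tconv_resting_1. The Irf7 cluster held 65 and 41 cells in the ∆Foxp3 samples and 70 and 27 in the WT samples.

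Some resting-annotated cells of ∆Foxp3 mice had UMIs that the authors counted as GFP. With V3 these numbered 617 and 762 in resting cells of ∆Foxp3 mice, against 3 and 6 in WT mice, while Cre UMIs numbered 10 and 9 in ∆Foxp3 mice. The mice carried EGFP in the Foxp3 allele and YFP in ROSA, and which of these gave the UMIs was not tested. Within V3 ∆Foxp3 mice, Dapl1 had 15.2 CPM in the 170 resting cells with a GFP UMI, against 38.3 CPM in the 306 without one, in sample 1. In sample 2 it had 8.08 CPM in 135 cells with a GFP UMI, against 22.4 CPM in 291 without. Igfbp4 stood at 54.4 CPM with and 110.6 CPM without in sample 1, and at 33.1 CPM with and 60.2 CPM without in sample 2. Pdlim4, Actn1 and Pde3b were also lower with a GFP UMI in both samples. Zbtb20 went the other way, at 28.0 CPM with and 21.8 CPM without in sample 1, and at 19.8 CPM with and 14.96 CPM without in sample 2. St8sia6 had 6.39 CPM with and 7.28 CPM without in sample 1, and 2.94 CPM with and 2.62 CPM without in sample 2. The cells with a GFP UMI were deeper in both samples, at a median of 6768.5 against 5980 UMIs in sample 1 and of 8195 against 7731 UMIs in sample 2. For Dapl1 and Igfbp4 both subsets were below every V3 WT sample. In V2 ∆Foxp3 mice the subsets were closer for Dapl1, at 221 CPM with and 199 CPM without in sample A, and 123 CPM with and 116 CPM without in sample B. These are values of 2 samples per kit, and the difference between subsets was not tested.

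**Figure D3:**
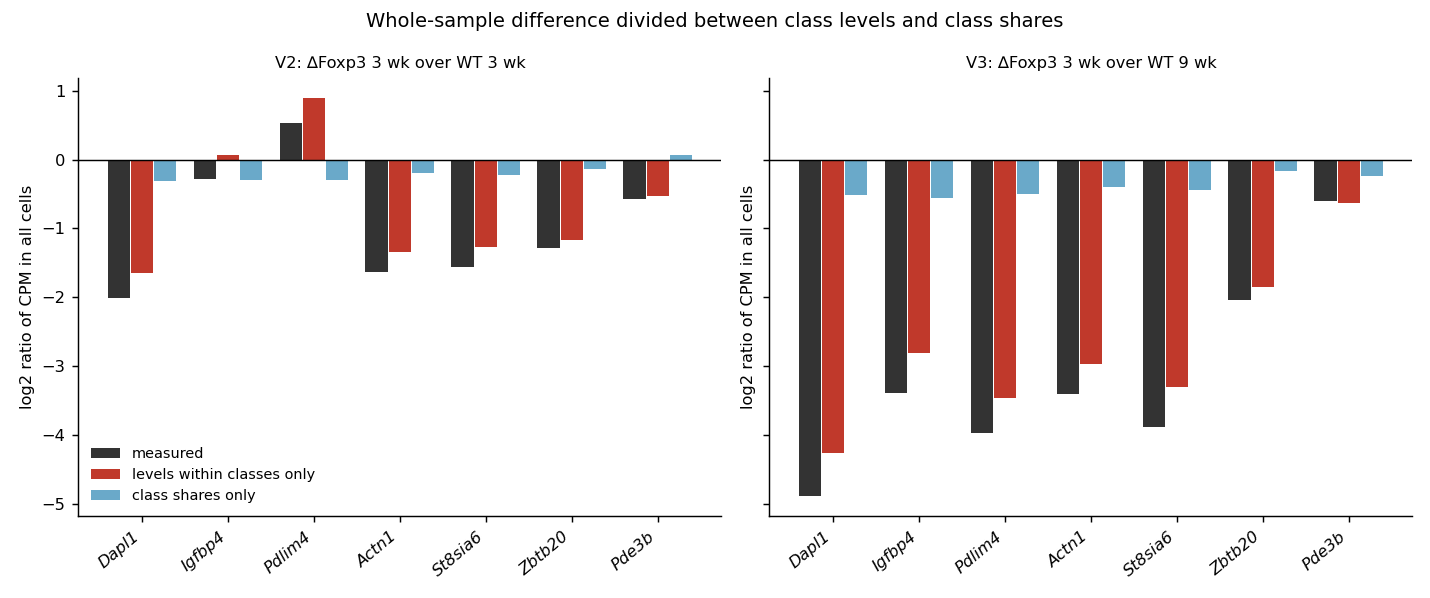
Log2 difference of the whole-sample level, ∆Foxp3 over WT mice, for each gene and kit, beside the value that class levels alone and class shares alone give. For Dapl1 with V3 the measured value is -4.89, class levels alone give -4.26 and class shares alone give -0.51.

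Resting cells were also fewer. They made up 47.6% and 45.5% of cells in V3 ∆Foxp3 mice, against 80.8% and 71.9% in WT mice, and 72.5% and 54.0% in V2 ∆Foxp3 mice, against 83.6% and 82.1% in WT mice. How much of the whole-sample fall this alone gives was worked out by arithmetic, from the mean level in each of the 3 classes and the mean share of UMIs of each class. A change of cell state inside an annotated class counts as a change of level in this arithmetic. With V3, changing the class levels alone gave -4.26 for Dapl1, against -0.51 for changing the shares alone, and -4.89 measured. Igfbp4 had -2.80 from levels alone and -0.56 from shares alone (-3.40 measured). Zbtb20 had -1.85 from levels and -0.16 from shares (-2.04 measured). For each of the 7 genes with V3 the part from levels was the larger.

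With V2 the same held for Dapl1, at -1.64 from levels and -0.31 from shares, and for Actn1 (-1.35 and -0.20), St8sia6 (-1.26 and -0.22), Zbtb20 (-1.17 and -0.14) and Pde3b (-0.52 and 0.06). Igfbp4 differed. Its whole-sample difference of -0.28 came with 0.07 from levels and -0.30 from shares. Pdlim4 had 0.89 from levels and -0.30 from shares, which made 0.53 over whole samples.

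Activated Tconv of WT mice had less Dapl1, Igfbp4, Pdlim4, Actn1, St8sia6 and Zbtb20 than their resting Tconv with both kits. Mean Pde3b in WT mice was higher in activated than in resting cells with V2, at 44.2 against 32.9 CPM. With V3 it was lower, at 27.6 against 46.9 CPM. With V2, 6 of 7 genes were lower in activated cells of ∆Foxp3 mice than of WT mice, where 6% of the 8170 genes tested were lower (edgeR, adjusted p under 0.05). The choice of genes makes this count a description, as it does the V3 and Treg-annotated counts of ∆Foxp3 against WT mice below. Dapl1 had 9.69 and 1.84 CPM in ∆Foxp3 mice, compared with 53.2 and 105 CPM in WT mice (log2 difference -3.60 ± 0.47). Igfbp4 had 40.02 and 19.0 CPM in ∆Foxp3 mice, compared with 89.6 and 113 CPM in WT mice (-1.71 ± 0.25). Actn1 had 28.2 and 17.8 CPM in ∆Foxp3 mice, compared with 88.0 and 154 CPM in WT mice (-2.34 ± 0.29). Pdlim4, with 10.5 and 1.84 CPM in ∆Foxp3 mice, compared with 11.95 and 19.1 CPM in WT mice, did not pass (-1.16 ± 0.53).

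Pde3b in activated cells depended on which cells were kept. It had 15.2 and 22.7 CPM in ∆Foxp3 mice, compared with 45.6 and 42.7 CPM in WT mice, a log2 difference of -1.26 ± 0.22. Without natural killer T (NKT) cells and cells with markers of other types, the difference was -0.15 and did not pass; the 2 kinds of cells were left out together, and their separate parts were not tested. The NKT cluster, which the activated class includes, had 45.7 and 20.8 CPM in ∆Foxp3 mice, compared with 99.8 and 107 CPM in WT mice, the highest Pde3b level of any V2 cluster of WT mice. It held 65 and 34 cells in ∆Foxp3 samples, against 199 and 113 in WT samples.

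Whether the V2 difference itself was larger in activated than in resting Tconv was estimated as an interaction, with the sample as a block. It is built from the same falls that chose the genes, so it is a description and is given with no p-value. The fall in activated cells was larger by log2 -2.01 ± 0.36 for Dapl1 (SE, edgeR), -1.74 ± 0.23 for Igfbp4 and -0.99 ± 0.24 for Actn1. For Pdlim4 the interaction was -2.07 ± 0.39, between 0.94 in resting and -1.16 in activated cells. These 4 of 7 members were called, where 7.19% of 9050 genes were in either direction. St8sia6, Zbtb20 and Pde3b did not pass, at -0.98, 0.33 and -0.77. With DESeq2, Dapl1 and Pdlim4 were not called, and Actn1 was not called in edgeR without WT sample B (-0.62). In the same fit, 12 of the 22 genes of naive and resting T cells were lower and none higher (median -0.63), and of the 20 genes of activated and memory T cells 9 were lower and 3 higher (median -1.09).

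With V3, activated cells of ∆Foxp3 mice were again lower in 6 of 7 members, where 4.7% of 8744 genes were lower. Dapl1 had 2.61 and 3.32 CPM in ∆Foxp3 mice, compared with 124 and 100.4 CPM in WT mice (-5.17 ± 0.67). Pde3b had 31.0 and 24.7 CPM in ∆Foxp3 mice, compared with 40.2 and 14.9 CPM in WT mice, and the groups overlapped (-0.06 ± 0.33). Only 2 of the 7 passed without WT sample 1. Between activated and resting cells Pde3b was the one member whose V3 difference was called as unequal in edgeR (0.97 ± 0.30), where 8.53% of 10173 genes were, again as a description. That call was lost with DESeq2 (1.12), without WT sample 2 (0.37) and without ∆Foxp3 sample 1 (0.68).

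**Figure D4:**
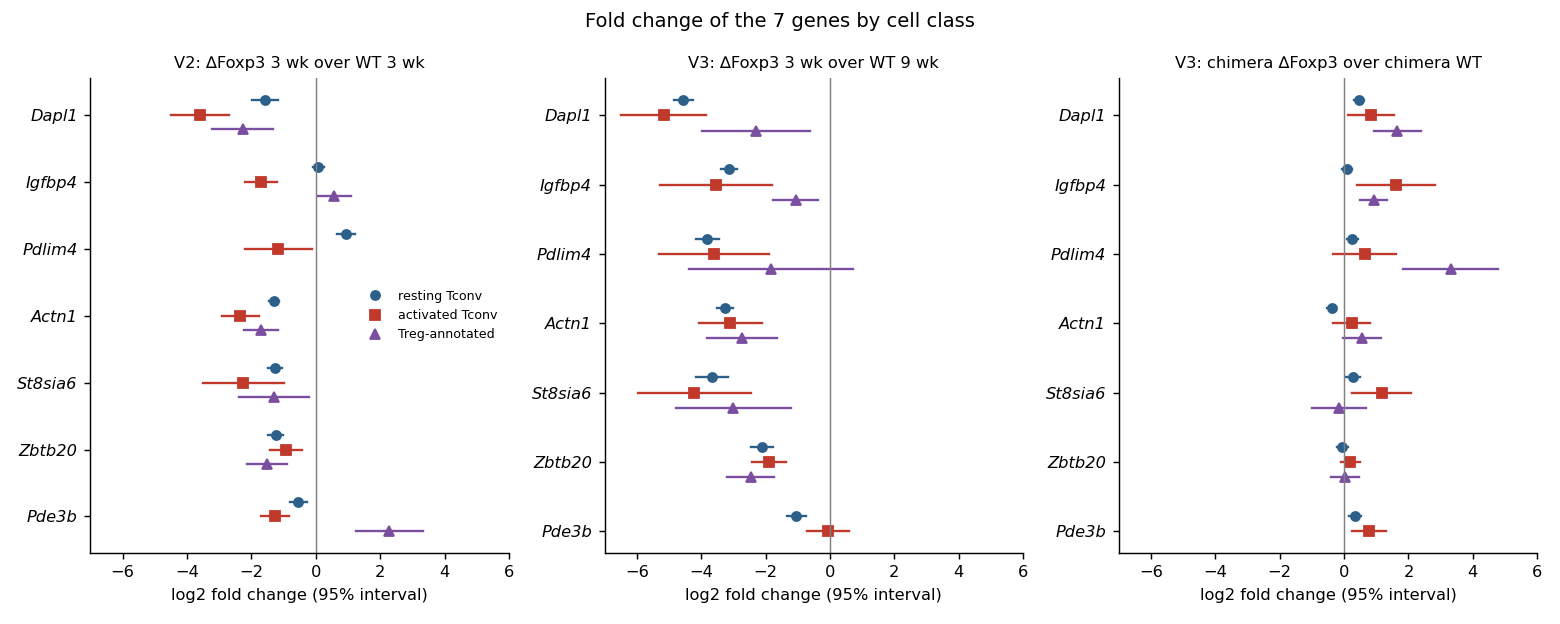
Log2 fold change of each gene (symbols) with its 95% interval (lines) in resting Tconv, activated Tconv and Treg-annotated cells, for ∆Foxp3 over WT mice with V2 and V3 and for chimera ∆Foxp3 over chimera WT cells; genes that did not pass the filter on low counts have no symbol. In V2 mice Dapl1 was at -1.59 in resting and -3.60 in activated cells, and in chimeras the resting values lay between -0.38 and 0.47.

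In cells that the authors placed with Treg cells the members divided again. With V2, 6 members passed the filter on low counts and Pdlim4 did not. Dapl1 had 14.97 and 2.84 CPM in ∆Foxp3 mice, compared with 39.1 and 61.2 CPM in WT mice (log2 difference -2.27 ± 0.49). Actn1 had 33.3 and 25.6 CPM in ∆Foxp3 mice, compared with 98.5 and 90.9 CPM in WT mice (-1.70 ± 0.27), and Zbtb20 was at -1.51 ± 0.32. Pde3b was higher, with 23.3 and 25.6 CPM in ∆Foxp3 mice, compared with 4.05 and 5.24 CPM in WT mice (2.29 ± 0.53). The Pde3b values rest on 14 and 9 UMIs in ∆Foxp3 mice and 3 and 3 UMIs in WT mice, and the call was lost with DESeq2 and without any one of the 4 samples. Among 5492 genes tested, 7.79% were lower and 8.54% higher, beside 3 and 1 of 6 members. The 1 higher member, Pde3b, passed the filter on low counts only through the ∆Foxp3 samples, where it was high.

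Igfbp4 and Pdlim4 stood out in one cluster of these cells. In the V2 Treg_resting cluster, Igfbp4 had 534 and 389.9 CPM in ∆Foxp3 mice, compared with 132 and 98.4 CPM in WT mice, and Pdlim4 had 89.8 and 28.9 CPM in ∆Foxp3 mice, compared with 3.46 and 4.38 CPM in WT mice. Dapl1 in the same cluster had 39.9 and 0 CPM in ∆Foxp3 mice, compared with 45.03 and 45.9 CPM in WT mice. The ∆Foxp3 cells of that cluster thus had Igfbp4 near the level of resting Tconv, and Dapl1 far below it. The cluster held 63 and 22 cells in ∆Foxp3 samples, against 220 and 171 in WT samples, and no test was made on clusters.

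In V3 Treg-annotated cells, St8sia6 (-3.00 ± 0.91), Actn1 (-2.73 ± 0.56) and Zbtb20 (-2.47 ± 0.37) were lower in ∆Foxp3 mice, which is 3 of 6 members tested, where 3.49% of 6136 genes were lower. St8sia6 rests on 2.34 and 3.41 CPM in ∆Foxp3 mice, compared with 24.8 and 22.7 CPM in WT mice, and lost its call without any one of the 4 samples of these 2 groups. Without WT sample 1, Actn1 lost its call too, at -2.08. Dapl1, Igfbp4 and Pdlim4 did not pass, at -2.30, -1.06 and -1.84. Pde3b was filtered out.

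**Figure D5:**
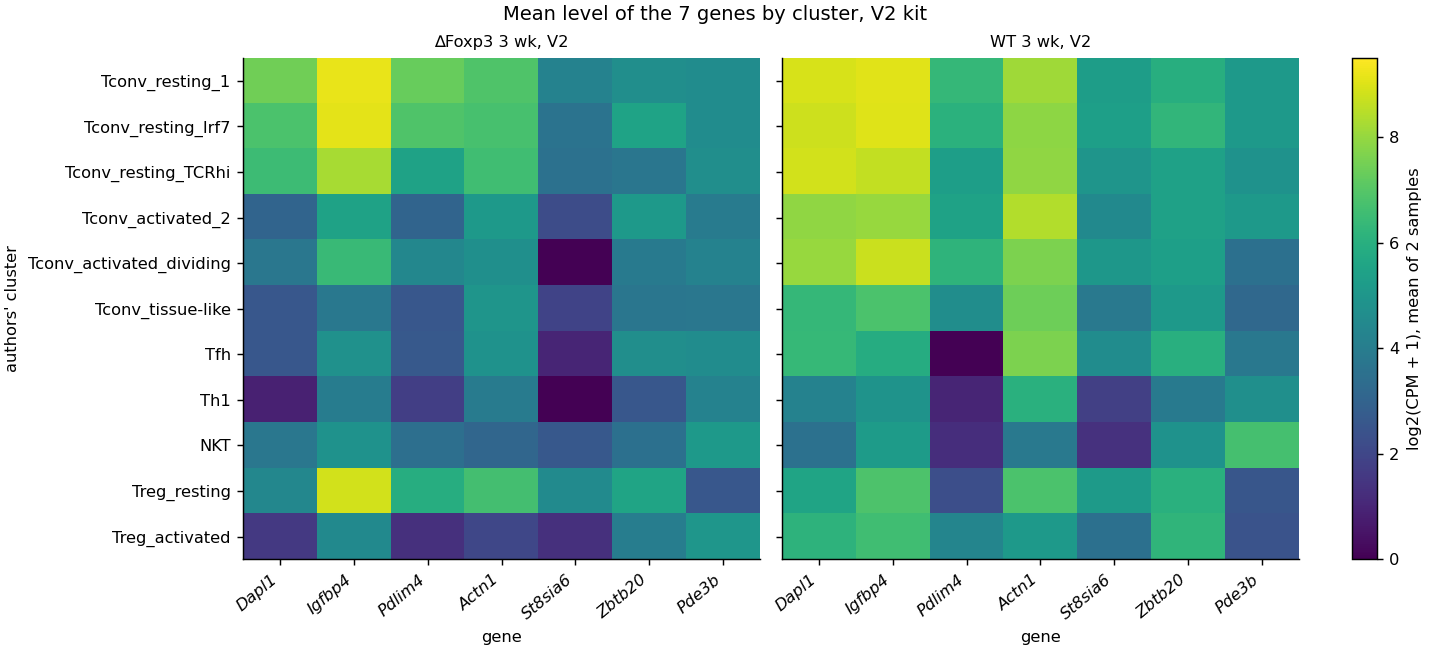
Mean level of the 7 genes in the authors' clusters with the V2 kit, as log2(CPM + 1), with ∆Foxp3 mice on the left and WT mice on the right, for clusters with at least 20 cells in every sample. Dapl1 in Tconv_resting_1 had 215 and 129 CPM in ∆Foxp3 mice, compared with 471 and 508 CPM in WT mice, and Igfbp4 in Treg_resting had 534 and 389.9 CPM in ∆Foxp3 mice, compared with 132 and 98.4 CPM in WT mice.

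In chimeras, resting ∆Foxp3 cells had levels of all 7 genes near those of WT cells. Compared with resting cells of V3 ∆Foxp3 mice, the chimera ∆Foxp3 cells were higher by log2 4.55 for Dapl1, 3.92 for Pdlim4, 3.81 for St8sia6, 3.51 for Igfbp4, 3.02 for Actn1, 2.30 for Zbtb20 and 1.14 for Pde3b; 24.3% of 10182 genes were higher in that comparison, and it was among those that chose the genes. Chimera mice were 16 weeks old by their sample labels, although irradiation at 7 weeks and the 10 weeks that followed come to more, and ∆Foxp3 mice 3 weeks old, so age, transplantation and the presence of WT cells cannot be told apart here.

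The comparison of ∆Foxp3 with WT cells inside chimeras was not named in the choice of genes, although the chimera samples entered it. Its p-values are therefore not independent of that choice. Dapl1 was higher in ∆Foxp3 cells, with 443, 502 and 391 CPM, against 335, 341 and 349 CPM in WT cells, and the groups did not overlap. The log2 difference was 0.47 ± 0.08 (SE; 95% interval 0.31 to 0.63; edgeR adjusted p = 0.0032), or 1.39-fold. Actn1 was lower in ∆Foxp3 cells, with 177, 146 and 171 CPM, against 239, 219.9 and 230.3 CPM in WT cells, again without overlap (-0.38 ± 0.07, 95% interval -0.52 to -0.24, adjusted p = 0.0057). Of 10182 genes, 0.864% were higher and 0.412% lower, beside 1 and 1 of the 7 members. Both calls were lost without the 2 samples of crossed strain entries, at 0.36 for Dapl1 (adjusted p = 0.11) and -0.29 for Actn1 (adjusted p = 0.15); over all alternatives tried, Dapl1 ranged from 0.36 to 0.56 and Actn1 from -0.44 to -0.29.

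The other members differed little inside chimeras. Pde3b had 52.6, 43.6 and 47.0 CPM in ∆Foxp3 cells, against 41.0, 40.05 and 40.7 CPM in WT cells, every ∆Foxp3 sample above every WT sample (0.34 ± 0.09, 95% interval 0.16 to 0.53, edgeR adjusted p = 0.088). With the chimera as a block it passed, at 0.32 (adjusted p = 0.024). Pdlim4 had 120.0, 128 and 119 CPM in ∆Foxp3 cells, against 119.8, 95.4 and 115 CPM in WT cells (0.26 ± 0.09, 0.09 to 0.43, adjusted p = 0.24), and passed with the block as well (0.25, adjusted p = 0.045), which made 4 members called where the fit without it had 2. St8sia6 had 56.2, 50.5 and 53.1 CPM in ∆Foxp3 cells, against 42.2, 51.1 and 45.8 CPM in WT cells, and did not pass (0.28, 0.06 to 0.49). Igfbp4 (0.09, -0.07 to 0.26) and Zbtb20 (-0.05, -0.23 to 0.13) did not pass. Their intervals do not reach the differences of ∆Foxp3 mice with V3, but the genes were chosen for a return in chimeras, so this is a description.

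Other measures also differed between the 2 donors' cells. Of 7 tested Treg markers, 4 were lower in resting ∆Foxp3 cells of chimeras (median log2 difference -1.11), as were 4 of 4 tested erythroid markers (-3.69), and 4 of 11 mitochondrial transcripts were higher. Summed erythroid markers ranged from 2.45 to 10.9 CPM in ∆Foxp3 resting cells and from 2.77 to 295 CPM in WT resting cells. Genotype was also partly tied to the encapsulation tube, since 2 of 3 ∆Foxp3 samples were in tube A and 2 of 3 WT samples in tube B. With the tube as a term, Dapl1 and Actn1 kept their calls. None of the 22 naive and resting genes passed in this comparison in edgeR.

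WT cells of chimeras were set against WT cells of 9-week-old mice, a comparison in which both sides lack the ∆Foxp3 allele. Age, transplantation and the presence of ∆Foxp3 cells changed together in it and cannot be told apart. Samples of both groups entered the choice of genes, so the p-values of this paragraph are not independent of that choice. Dapl1 was lower in chimera WT cells, with 335, 341 and 349 CPM, against 446 and 447 CPM in WT mice (log2 difference -0.47 ± 0.10, edgeR adjusted p = 0.023), where 0.246% of 10182 genes were lower. That call was lost when any one of the 5 samples was left out (adjusted p 0.088 to 0.23) and in Tconv_resting_1 alone (-0.39, adjusted p = 0.13). Igfbp4 had 644, 620.1 and 669 CPM in chimera WT cells, against 490.0 and 516 CPM in WT mice, with no overlap, and did not pass (0.27 ± 0.10, adjusted p = 0.38). The other 5 members lay between -0.25 and 0.24 and did not pass. Chimera ∆Foxp3 cells had Dapl1 at 391 to 502 CPM, a range that includes the WT mice.

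In activated Tconv of chimeras no member passed between ∆Foxp3 and WT cells in edgeR, while 4 of 7 had an unadjusted p under 0.05, as did 809 of the 8744 genes tested. With DESeq2 none passed, and without the filter on low counts 3 did. All 7 values were positive, from 0.20 for Zbtb20 to 1.62 for Igfbp4. Igfbp4 had 168, 26.0 and 137 CPM in ∆Foxp3 cells, against 11.4, 46.8 and 58.2 CPM in WT cells, so the ∆Foxp3 samples spread widely. Of the 8744 genes, 0.137% passed in either direction. Over all cells of the chimeras, Dapl1 (0.67, adjusted p = 0.0076) and Pde3b (0.55, adjusted p = 0.014) were higher in ∆Foxp3 cells in edgeR, where 0.211% of 10918 genes were. Since chimera samples entered the choice of genes, these p-values are not independent of it. Neither gene passed without WT sample 1, whose strain entry was crossed, or without ∆Foxp3 sample 1. Pde3b did not pass without WT sample 3 or ∆Foxp3 sample 3 either. Resting cells made up 84.8%, 71.6% and 85.3% of ∆Foxp3 cells, against 68.9%, 74.3% and 72.9% of WT cells, and the part of that mix in these whole-sample levels was not tested.

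Treg-annotated cells of chimeras showed larger differences on fewer cells. Pdlim4 had 23.4, 34.3 and 38.0 CPM in ∆Foxp3 cells, against 5.05, 2.58 and 2.35 CPM in WT cells (log2 difference 3.31 ± 0.75, SE, edgeR). These are 6, 8 and 9 UMIs in ∆Foxp3 cells and 2, 2 and 1 UMIs in WT cells. In Treg-annotated cells of the other V3 groups tested, Pdlim4 had at most 14.9 CPM. It passed the filter on low counts only through the chimera ∆Foxp3 samples, where it was high, so its value is a description with no p-value. Igfbp4 had 206, 129 and 219.6 CPM in ∆Foxp3 cells, against 96.0, 89.0 and 129 CPM in WT cells (0.92 ± 0.21, adjusted p = 0.044), and Dapl1 had 113, 51.4 and 38.0 CPM in ∆Foxp3 cells, against 30.3, 19.3 and 21.1 CPM in WT cells (1.65 ± 0.38, adjusted p = 0.039). Thus 3 of 6 members were called higher in edgeR, where 0.179% of 6136 genes were, and that count includes Pdlim4. Chimera samples entered the choice of genes, so the p-values of this paragraph are not independent of that choice. Against the resting cells of the same samples the difference was larger for Pdlim4 (3.06 ± 0.60) and Igfbp4 (0.79 ± 0.20, edgeR adjusted p = 0.023). In that comparison 0.332% of 9036 genes passed in edgeR. The Pdlim4 value rests on the same few UMIs of Treg-annotated cells, so it too is a description with no p-value. With DESeq2 neither gene passed (adjusted p = 0.62 for Igfbp4), and without the filter on low counts Igfbp4 did not pass (adjusted p = 0.059). Igfbp4 also lost that call without WT sample 1 or 2 or without ∆Foxp3 sample 1 or 3 (adjusted p 0.13 to 0.58).

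Those calls depended on single samples. None of the 3 members passed with the tube as a term (adjusted p 0.059 to 0.063), nor without chimera WT sample 1, chimera WT sample 2 or ∆Foxp3 sample 1. With DESeq2, Dapl1 (adjusted p = 0.14) and Igfbp4 (adjusted p = 0.16) did not pass, and Pdlim4 had no adjusted p. Without the 2 samples of crossed strain entries, Dapl1 (2.02) and Igfbp4 (1.10) passed in edgeR, and Pdlim4 did not pass the filter. Treg-annotated cells were 2.39%, 4.84% and 2.27% of ∆Foxp3 cells, against 9.77%, 8.76% and 8.82% of WT cells, and summed Treg markers over all cells stood at 186, 459 and 214 CPM in ∆Foxp3 cells, against 609, 607 and 477 CPM in WT cells. The highest Treg marker level among ∆Foxp3 samples was in the one with the crossed strain entry, as was the highest among WT samples. UMIs that the authors counted as Foxp3 numbered 7, 9 and 9 in ∆Foxp3 samples 1, 2 and 3, of 11884169, 5997672 and 11406752 UMIs. In WT samples 1, 2 and 3 they numbered 38, 39 and 20, of 4695455, 9496000 and 5434171 UMIs. The part of these measures in the levels of the members was not tested.

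Sorted Treg cells of WT mice show how far the members mark Tconv without any Foxp3 deletion. Actn1 had 54.2 and 40.7 CPM in Treg cells, against 199.98 and 153 CPM in Tconv (log2 difference -2.17 ± 0.22, edgeR adjusted p = 2.1e-05). St8sia6 had 21.7 and 16.3 CPM in Treg cells, against 57.4 and 36.6 CPM in Tconv (-1.63 ± 0.34, adjusted p = 0.0050); it did not pass without Tconv sample 1 (-1.13, adjusted p = 0.23) or Treg sample 2 (-1.41, adjusted p = 0.062). Zbtb20 alone of the 7 was not lower at the threshold, with 88.0 and 82.2 CPM in Treg cells, against 85.3 and 92.1 CPM in Tconv (-0.31, 95% interval -0.63 to 0.02, adjusted p = 0.27).

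Pde3b and Pdlim4 were near the floor in Treg cells. Pde3b had 3.01 and 2.04 CPM (5 and 3 UMIs) in Treg cells, against 55.8 and 58.6 CPM in Tconv, and Pdlim4 had 5.42 and 2.72 CPM (9 and 4 UMIs) in Treg cells, against 95.6 and 99.5 CPM in Tconv. Dapl1 and Igfbp4 were lower but well detected. Dapl1 had 27.7 and 19.7 CPM in Treg cells, against 423 and 402 CPM in Tconv. Igfbp4 had 68.7 and 51.6 CPM in Treg cells, against 462 and 372 CPM in Tconv. Of 10918 genes, 6.01% were lower in Treg cells, beside 6 of 7 members. Earlier results of these data were known for some of the members, so this count is no independent evidence. Among the authors' clusters of sorted Treg cells, Dapl1 and Igfbp4 were highest on average in Treg_furtive, at 43.8 and 91.0 CPM, and Treg_resting, at 31.1 and 104 CPM, and lowest in Treg_tissue-like, at 2.49 and 12.3 CPM.

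The levels of the members rose and fell together over V3 samples, but that rested on the ∆Foxp3 mice. In resting Tconv of 12 V3 samples, Pearson's r of log2 CPM between pairs of members lay between 0.71 (Igfbp4 with Pde3b) and 0.99 (Dapl1 with Pdlim4). Without the 2 ∆Foxp3 samples, over 10 samples, r lay between -0.67 (Dapl1 with Actn1) and 0.70 (Dapl1 with Pde3b). The samples share tubes, and several share a hashtag, so r is given as a description. Over all cells of the 14 V3 samples, Zbtb20 and Pde3b followed the mean of the 7 members least, at r of 0.76 and 0.63, and r between these 2 was -0.00.

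Genes outside the set with the most alike pattern were sought over the same 14 samples, by Pearson's r with the mean of the members. They were Fam101b (0.995), Pdk1 (0.992), Txk (0.990), Rps27, Rps29, Ccr7, Rps28 and Lef1 (0.985). Most alike to single members were Fam101b to Dapl1, Lef1 to Igfbp4, Arl4c to Pdlim4, Gm20696 to St8sia6, Ccr7 to Actn1, Malat1 to Zbtb20 and Cd40lg to Pde3b, with r of 0.982 to 0.994. In resting Tconv with V2, Fam101b was at -0.61 and Ccr7, the chemokine receptor of lymphoid homing, at -0.02, and neither passed; with V3 they were at -3.18 and -2.15. The likeness over V3 samples was thus not matched by all of these genes in V2 resting cells.

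Relatives of the members did not share their fall as families. Among PDZ-LIM and actinin genes, 6 were tested in resting Tconv, of which 1 was higher and 2 lower with each kit. Actn2 was lower with both kits, at -2.04 with V2 and -1.31 with V3. Pdlim1 was at -0.20 with V2, which did not pass, and -1.55 with V3; Pdlim2 was higher, at 0.60 with V2 and 0.31 with V3; and Actn4, the other alpha-actinin of non-muscle cells, did not pass with either, at 0.00 and 0.23. Among sialyltransferases of the same type, St8sia1 was at -0.85 with V2 and -1.75 with V3, and St8sia4, which did not pass, at -0.60 and -0.20. Among phosphodiesterases, Pde4b was at -0.56 and -0.61, and Pde7a went opposite ways, at -1.02 with V2 and 1.04 with V3. Of 8 BTB zinc finger genes tested with V2, 1 was lower, Zbtb7b, the helper lineage factor ThPOK, at -0.83, and with V3 it was at -0.71. By CPM in V3 resting cells, Zbtb38 was higher, with 65.2 and 56.7 in ∆Foxp3 mice, against 31.8 and 28.4 in WT mice. Zbtb7a (97.8 and 95.7 against 70.8 and 62.6) and Zbtb1 (68.8 and 73.4 against 56.9 and 59.7) were higher too. Zbtb4 was lower, at 28.7 and 24.0 against 36.4 and 29.0. Dap, the relative of Dapl1, was at -0.28 with V2 and 0.77 with V3. Igf2r was at -0.23 with V2, which did not pass, and -0.55 with V3. In chimeras none of the relatives given here with a log2 difference passed between ∆Foxp3 and WT resting cells in edgeR.

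As a description of how the set was chosen, the members were ranked by their whole-sample log2 difference among genes called lower in ∆Foxp3 mice in edgeR at a mean of at least 20 CPM. With V3, where 20.9% of all 10918 genes tested were lower, 1288 reached that level; among them Dapl1 was 1, Pdlim4 2, St8sia6 3, Actn1 7, Igfbp4 8, Zbtb20 25 and Pde3b 312. With V2, where 9.61% of 10675 genes were lower, 634 reached it; among them Dapl1 was 3, Actn1 5, St8sia6 7, Zbtb20 10, Pde3b 155 and Igfbp4 526, and Pdlim4 was higher in ∆Foxp3 mice (0.54). Dapl1, Actn1, St8sia6 and Zbtb20 were thus among the 10 largest such falls with V2 and among the 25 largest with V3.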

How the data were processed

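Single-cell 3′ RNA-seq of sorted splenic CD4+ T cells was analysed from the matrix of UMI counts per gene and cell that the authors deposited, which holds raw counts. Cell Ranger 3.0.2 and the mm10 build are named in the submitters' processing notes. The cell classes, clusters, sample names and the percent of mitochondrial UMIs per cell come from the authors' deposited cell annotation, in which 46 further columns were not used. That annotation lists 1 kit version, V3, for every cell, whereas sample labels name V2 for the experiment with 4 samples; kits were taken from the labels. No source used here states how doublets were removed, and no doublet caller was run.

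UMI counts were summed per sample and class, leaving out sums of under 20 cells, and tested with edgeR 4.0.16 (quasi-likelihood F-test, scaling by TMM, a filter on low counts by filterByExpr at min.count 10, Benjamini-Hochberg adjustment over all genes tested, threshold 0.05) in R 4.3.3. The 4 V2 samples and the 14 V3 samples were fitted apart, on group means. Differences between classes used an interaction with the sample as a block. Correlations used log2 CPM with a prior count of 2. Total UMIs per sample ranged from 955097 to 14887898. The fits were tested on simulated counts with known changes. Alternatives were DESeq2 1.42.0, RLE scaling, no filter on low counts, a replicate block, leaving out each sample, cells thinned to 1500 UMIs, the largest resting cluster alone, no cycling cells (those with a UMI of Mki67, Top2a or Birc5) and no cells of other types. That last set covers 3044 NKT cells and cells with at least 2 UMIs of markers of other types. A term for the encapsulation tube and leaving out the 2 chimera samples of crossed strain entries were added after seeing the data.

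Same-numbered chimera samples came from the same mouse, per the labels' hashtags. The correlation of their deviations from the group means was 0.226, 0.0676 and 0.0482 for the 3 chimeras. Between chimera samples of different number it ranged from -0.148 to 0.0706, so 0.0676 and 0.0482 lay within that range. The pairing therefore rests on the labels. The members and the gene lists were chosen with earlier results of these data known. Named genes were all members, up to 4 genes of each list with the lowest p in V3 resting Tconv (∆Foxp3 against WT mice), relatives of the members with a mean of at least 20 CPM in V3 resting Tconv, and the genes with the highest correlation to the members; Lef1 and Ccr7 among them were described further after their values were seen. Motifs were searched in RefSeq promoters of GRCm38.p6, and gene positions come from the GRCm38 annotation.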

Additional observations from a re-analysis of the deposited data

Results flagged for a closer look

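The difference between ∆Foxp3 and WT cells was unequal between cell classes for several of the genes in the fit of that difference itself (edgeR interaction with the sample as a block). With V2, the ∆Foxp3 over WT log2 difference in activated Tconv minus that in resting Tconv was -2.01 for Dapl1, -2.07 for Pdlim4, -1.74 for Igfbp4 and -0.99 for Actn1. For Pdlim4 the sign in the 2 classes was opposite, at -1.16 in activated cells, which did not pass, and 0.94 in resting cells. With V3 the same quantity was 0.97 for Pde3b, with -0.06 in activated and -1.05 in resting cells. The genes were chosen for falls in these mice, so these 5 values are a description with no p-value. In chimeras, the ∆Foxp3 over WT difference in Treg-annotated cells minus that in resting Tconv was 3.06 for Pdlim4 in edgeR. For Igfbp4 it was 0.79 (edgeR adjusted p = 0.023). The Pdlim4 value rests on few UMIs in Treg-annotated cells and is a description with no p-value. Chimera samples entered the choice of genes, so the p-values of Igfbp4 are not independent of it. With DESeq2 neither gene passed (adjusted p = 0.62 for Igfbp4), and without the filter on low counts Igfbp4 did not pass (adjusted p = 0.059).

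Cycling cells, markers of other cell types and the numbers of cells also differed between classes and groups. Their part in these differences was not tested.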

How the results depend on the processing

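In resting Tconv, the number of members called changed by under 1.5 times under every alternative run for ∆Foxp3 against WT mice, with either kit. Elsewhere the counts moved, and the cause was not tested. Counted over all comparisons and alternatives, 42 counts of members moved by over 1.5 times, or to or from 0, and 162 did not. Counts of all genes called moved in 82 cases and did not in 122, so such shifts were not particular to the members. The counts below are given without the share of all genes called under the same alternative. With DESeq2, members called numbered 0 in Treg-annotated cells of chimeras (3 in edgeR), 2 in V2 Treg-annotated cells (4), 1 in all chimera cells (2), 0 for the chimera interaction (2), 2 for the V2 interaction (4) and 0 for the V3 interaction (1). Without the filter on low counts they numbered 3 in activated chimera cells (0), 5 in all chimera cells (2), 1 for the chimera interaction (2), 2 for chimera WT cells against WT mice (1) and 4 in resting chimera cells (2). With the tube as a term, 0 passed in Treg-annotated cells of chimeras. Without cells of other types, 3 passed in V2 activated cells (6) and 2 for the V3 interaction (1). In the largest resting cluster, 0 passed for chimera WT cells against WT mice, and without cycling cells 4 passed in resting chimera cells. Without the 2 samples of crossed strain entries, 0 passed in resting chimera cells and 4 for the chimera interaction.

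The replicate block gave 4 members in resting chimera cells (2 without it) and 2 for chimera WT cells against WT mice (1 without it), where Igfbp4 was added at 0.28 and the numbers do not pair animals. It moved no other count of members by over 1.5 times.

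Leaving out 1 sample at a time, members called ranged from 0 to 2 in Treg-annotated chimera cells, 1 to 2 in V3 Treg-annotated cells, 2 to 6 in V3 activated cells, 0 to 3 in all chimera cells, 1 to 4 for the chimera interaction, 0 to 1 for the V3 interaction, and 0 throughout for chimera WT cells against WT mice. In all chimera cells, none passed without WT sample 1 or without ∆Foxp3 sample 1.

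Values that changed sign had not passed the test. Leaving out 1 sample, they ranged from -0.72 to 0.17 (St8sia6) and -0.0253 to 0.0747 (Zbtb20) in Treg-annotated chimera cells, from -0.39 to 1.01 (Igfbp4) in V2 Treg-annotated cells, from -0.28 to 0.52 (Actn1) in activated chimera cells, from -0.54 to 0.92 (Pde3b) in V3 activated cells, from -0.0335 to 0.17 (Zbtb20) in all chimera cells, and from -0.0874 to 0.91 (Pdlim4) in all V2 cells. For the interactions they ranged from -0.12 to 0.15 (Zbtb20) in chimeras, from -0.0339 to 0.63 (Zbtb20) with V2, and with V3 from -0.27 to 0.69 (Actn1), -0.97 to 1.02 (Igfbp4), -0.18 to 1.10 (Pdlim4) and -1.52 to 0.29 (St8sia6). In resting cells they ranged from -0.26 to 0.0425 (Pdlim4) and -0.27 to 0.18 (St8sia6) for chimera WT cells against WT mice, from -0.12 to 0.11 (Zbtb20) in chimeras and from -0.0299 to 0.18 (Igfbp4) with V2. Under the other settings, Zbtb20 in Treg-annotated chimera cells was -0.0245 with no filter, -0.0186 without cells of other types and -0.0466 without the crossed samples. Without the crossed samples it was also -0.0460 in activated and -0.0485 in all chimera cells, and -0.0136 in all chimera cells with the tube as a term. Pde3b in V3 activated cells was 0.0094 with no filter and 0.30 without cells of other types. Without cells of other types, the interaction was 0.37 for Pde3b with V2, and -0.29 for Actn1, -0.11 for Pdlim4 and -0.0674 for Zbtb20 with V3. Pde3b in chimera WT cells against WT mice was 0.0118 with thinned cells.

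Depth set the size of differences in detection. Over the 7 genes, the median ∆Foxp3 minus WT difference in the share of resting cells with a UMI was -2.98 percentage points with V2 and -10.8 with V3 after thinning, and -5.27 and -32.9 with all UMIs. Of the values of single members under an alternative, 1224 kept direction and side of the threshold, 84 lost it, 37 gained it and 35 changed sign. Groups of 2 or 3 samples, several of which may share an animal, and the few UMIs of Pdlim4, Pde3b and St8sia6 in Treg-annotated cells limit what can be seen.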

Other observations

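The clusters below are parts of the classes compared above. Among clusters, Zbtb20 had its highest V3 levels in the follicular helper cluster (Tfh). It had 89.9, 144 and 158 CPM in chimera ∆Foxp3 cells, against 197, 129.5 and 178 CPM in chimera WT cells. The groups overlapped. Pde3b in the V2 Treg_activated cluster had 30.2 and 31.7 CPM in ∆Foxp3 mice, compared with 0 and 8.69 CPM in WT mice. Dapl1 in the V2 Th1 cluster had 1.70 and 0 CPM in ∆Foxp3 mice, compared with 22.8 and 12.6 CPM in WT mice. In the Treg_resting cluster of chimeras, Igfbp4 had 369 and 363 CPM in the 2 ∆Foxp3 samples with at least 20 cells, against 166, 143 and 223 CPM in WT samples.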
